A study of Mus musculus with 18 samples.

Results

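The MHC class II genes of the mouse liver were followed here as 8 genes, H2-Aa, H2-Ab1, H2-Eb1, H2-DMa, H2-DMb1, Cd74, Ciita and Ctss, taken by symbol from the 19057 lines of a liver RNA-seq table, in which all 8 were found. The table held 18 livers of male ICR mice, an outbred stock, in 6 groups of 3 livers, and every mouse was 10 weeks old. Con mice had the regular diet and saline, and HFD mice had a high-fat diet and saline. Con-FMT mice had the high-fat diet and a transplant of small intestine contents from control mice, whereas A10-FMT mice had the same diet and contents from mice given alginate oligosaccharide (AOS) at 10 mg/kg, the donor contents being pooled. AOS mice had the regular diet with AOS at 10 mg/kg, and HFD+AOS mice had the high-fat diet with AOS at 10 mg/kg. The comparisons asked whether the diet, the transplants or AOS itself moved the class II genes in the liver. Levels are RPKM (reads scaled to gene length and to all mapped reads of the library), which allow genes of different length to be set side by side, and differences are given in log2(RPKM + 1), where the added 1 makes the changes of low genes look smaller.

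MHC class II molecules show peptides from swallowed material to CD4+ T cells, and they are made mainly by dendritic cells, B cells and macrophages, in the liver also by Kupffer cells, its resident macrophages. H2-Aa and H2-Ab1 encode the 2 chains of the A molecule, and H2-Eb1 the beta chain of the E molecule. The product of Cd74, the invariant chain, holds the new molecule until it reaches the endosome, cathepsin S (Ctss) cuts that chain, and H2-DM (H2-DMa and H2-DMb1) exchanges its last fragment for a peptide. CIITA, encoded by Ciita, is the coactivator that the class II promoters need, and it acts through factors bound to X and Y boxes in front of these genes. All expression here came from whole liver, in which fewer cells of a type and less RNA in each cell cannot be told apart.

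H2-DMa, H2-DMb1, H2-Ab1, H2-Aa and H2-Eb1 lie in that order on chromosome 17 of GRCm38 (mm10), between positions 34119541 and 34316674, Ctss lies on chromosome 3 (95526786 to 95556403) and Ciita on chromosome 16 (10480059 to 10528418). Promoters of 5 members were in the RefSeq table used (GRCm38.p6, 250 bases before and 50 bases after a start listed there). For H2-DMa and H2-DMb1 that start is not the first base of the gene in the positions above. The 3 promoters shown here are those that held the Y box core together with either an X box core or a cyclic AMP response element. They are from H2-Aa (chr17:34287774-34288073, minus strand), H2-Eb1 (chr17:34305617-34305916, plus strand) and H2-DMb1 (chr17:34152941-34153240, plus strand). Capitals mark AACNGATG, the core of the X box, or TGACGTCA, the cyclic AMP response element, and TGATTGG, the core of the Y box, each searched on both strands and not overlapping one another.
H2-Aa: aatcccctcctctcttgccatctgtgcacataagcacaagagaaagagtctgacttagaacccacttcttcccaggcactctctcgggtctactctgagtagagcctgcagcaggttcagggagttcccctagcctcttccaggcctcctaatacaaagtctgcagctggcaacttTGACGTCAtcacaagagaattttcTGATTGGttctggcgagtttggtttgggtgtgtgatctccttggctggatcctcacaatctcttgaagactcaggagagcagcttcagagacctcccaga
H2-Eb1: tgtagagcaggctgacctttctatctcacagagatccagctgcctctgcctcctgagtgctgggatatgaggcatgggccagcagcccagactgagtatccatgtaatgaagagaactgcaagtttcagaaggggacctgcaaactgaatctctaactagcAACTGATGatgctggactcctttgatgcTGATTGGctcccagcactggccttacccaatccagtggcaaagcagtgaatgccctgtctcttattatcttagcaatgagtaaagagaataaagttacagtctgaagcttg
H2-DMb1: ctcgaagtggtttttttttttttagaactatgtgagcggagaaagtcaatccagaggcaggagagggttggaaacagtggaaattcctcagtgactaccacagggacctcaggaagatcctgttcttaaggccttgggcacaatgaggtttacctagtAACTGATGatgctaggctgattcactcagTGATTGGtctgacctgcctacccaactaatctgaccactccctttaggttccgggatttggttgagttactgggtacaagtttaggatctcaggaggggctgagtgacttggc
In H2-Eb1 the X core began 89 bases before the start and the Y core 61 bases before it, with 20 bases between them. In H2-DMb1 they began 92 and 63 bases before the start, with 21 bases between. H2-Aa held TGACGTCA, which reads the same on both strands, 74 bases before the start and the Y core 50 bases before it, with 16 bases between. Ctss held only an X core, 207 bases before the start, and these letters were not in the 2 windows of H2-DMa. Both of those windows (chr17:34122582-34122881 and chr17:34125268-34125567) lie inside the gene, which begins at 34119541. The bases in front of that position were not searched. Among all 32851 promoters of the table, 2.32% held AACNGATG, 1.79% held TGACGTCA, 7.82% held TGATTGG, and 0.332% held TGATTGG together with either of the others. The matches are letters in a window and not measured binding.

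The libraries had summed RPKM from 692303 to 806937 and from 14510 to 14980 genes above 0. The absolute depth is unknown. Relative depths, estimated from the value of 1 read in 36 genes with few reads, lay between 0.962 and 1.04. Con replicate 3 and AOS replicate 3 stood apart from the other libraries. Among genes in which the other 2 livers of the group differed by at least 1 on the log2 scale, Con replicate 3 lay between them for 92.0% of 301 genes and AOS replicate 3 for 94.6% of 260 genes, against 55.3% to 70.1% in the 12 livers of the other 4 groups. Whether these 2 libraries are independent livers was not tested, and the fits were also run without them. Nothing in the labels says whether the 3 livers of a group shared a cage, so p-values measure the spread between these livers.

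Cd74 was the most abundant member and Ciita the least. The median over 18 livers was 32.4 RPKM for Cd74, 15.9 RPKM for H2-Aa, 12.1 RPKM for Ctss and 11.95 RPKM for H2-Ab1. It was lower for H2-Eb1 at 1.95 RPKM, H2-DMa at 1.29 RPKM and H2-DMb1 at 1.21 RPKM. Ciita was at 0.07 to 0.21 RPKM, under 1 RPKM in every liver, so that 7 of the 8 members passed the filter for the test (at least 1 RPKM in at least 3 livers). H2-DMb1 has a near copy beside it, H2-DMb2 (0.19 to 1.18 RPKM), and how reads that align to both genes were counted is not given in the sources used here.

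**Figure D1:**
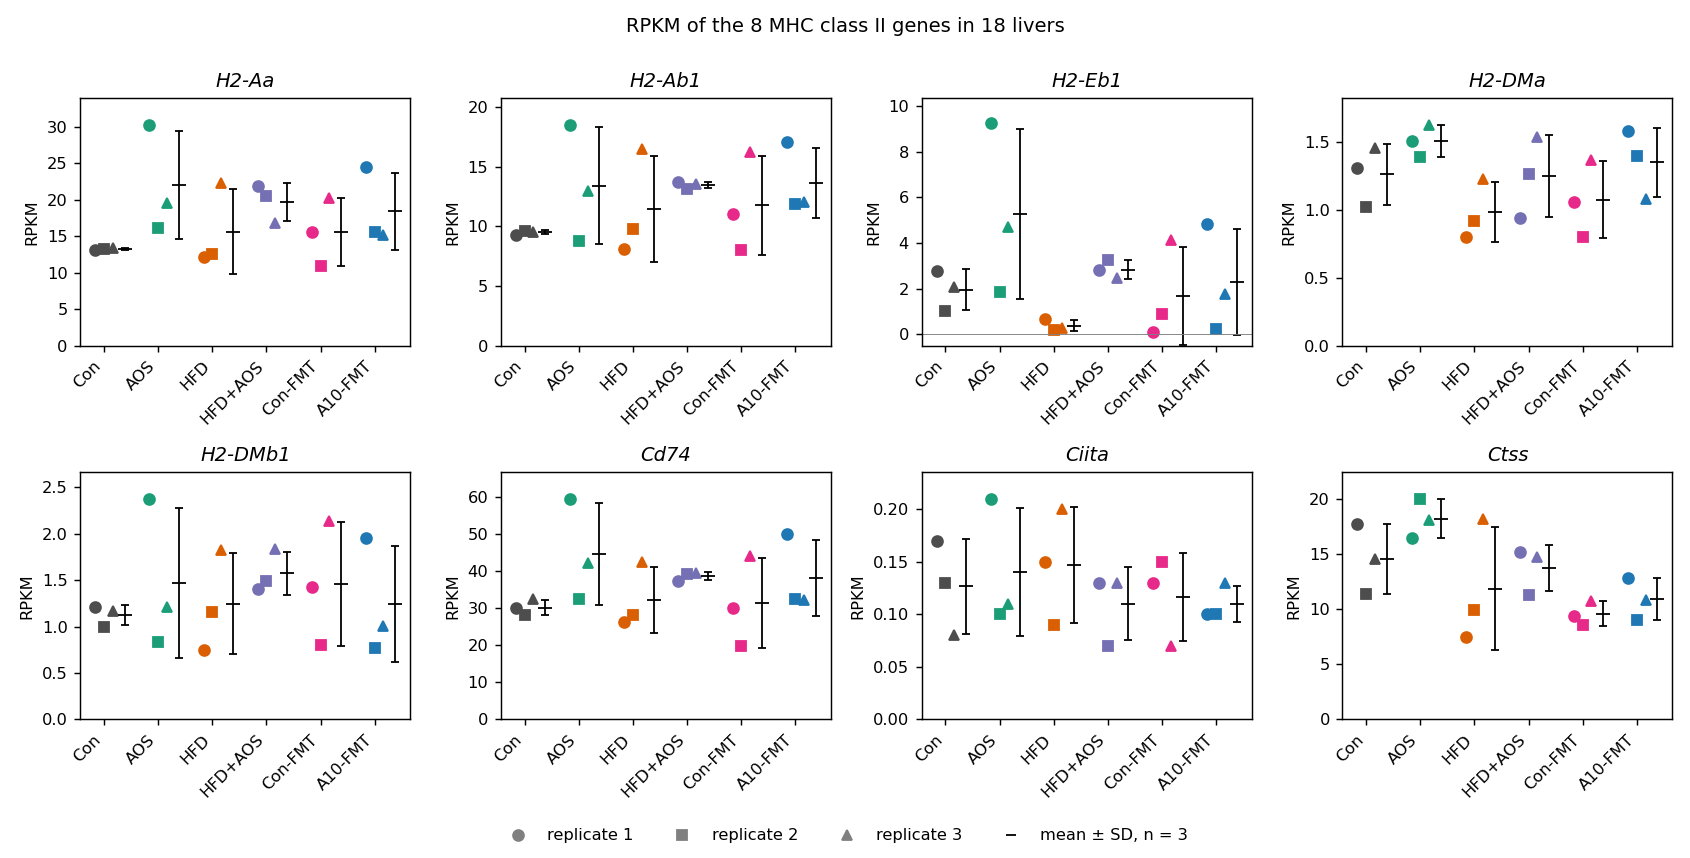
Level (RPKM, linear axes, each panel with its own scale) of the 8 class II genes in every liver, by group, with the 3 replicates as different marks and the mean ± SD (n = 3) in black. Con livers sit close together for H2-Aa (13.1 to 13.4 RPKM), whereas AOS livers run from 16.2 to 30.3 RPKM, and H2-Eb1 is under 0.7 RPKM in all 3 HFD livers.

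No member was called in any comparison at an adjusted p under 0.05 (limma, Benjamini-Hochberg over 10507 tested lines), and the spread between the 3 livers of a group was wide for most members. The SD within groups was larger for H2-Aa than for 94.9% of the tested genes, for H2-Ab1 than for 95.02%, for Cd74 than for 94.9%, for H2-DMb1 than for 94.0% and for Ctss than for 93.3%. H2-DMa, at 67.0%, was nearer to the ordinary gene, and H2-Eb1, at 99.4%, was among the most variable. The highest liver was above the lowest 2.04-fold for H2-DMa, 2.31-fold for H2-Ab1, 2.67-fold for Ctss, 2.77-fold for H2-Aa, 2.99-fold for Cd74, 3.17-fold for H2-DMb1 and 115-fold for H2-Eb1, or 46.2-fold for H2-Eb1 without Con-FMT replicate 1, its lowest liver.

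For the diet (HFD vs Con), the class II genes did not move together. H2-Aa was 13.1, 13.3 and 13.4 RPKM in the Con livers and 12.1, 12.5 and 22.3 RPKM in the HFD livers. Cd74 was 30.03, 28.1 and 32.4 RPKM in Con and 26.2, 28.2 and 42.3 RPKM in HFD. In both genes HFD replicates 1 and 2 were below the Con livers or at their low end, and HFD replicate 3 stood well above them. The differences were 0.17 for H2-Aa (95% interval -0.38 to 0.72) and 0.06 for Cd74 (-0.49 to 0.61) on the log2 scale. H2-Eb1 went the other way, at 2.79, 1.01 and 2.05 RPKM in Con and 0.67, 0.20 and 0.27 RPKM in HFD, so that every HFD liver was below every Con liver, with a difference of -1.06 (SE 0.56, limma adjusted p = 0.382). Without Con replicate 3 and AOS replicate 3 it was -1.02 (limma adjusted p = 0.627), and with 0.1 in place of 1 added before the log2 it was -2.11. H2-Eb1 was the only member whose groups did not overlap in this comparison, in which 18.5% of all tested lines did not overlap. In this comparison 0 of 7 members were called, and 0 had an unadjusted p under 0.05 in limma, beside 0.381% of all lines called. The median difference of the 7 members was 0.05, with 4 of 7 higher, and that of all lines tested was 0.05, with 62.5% higher. Leaving out Con replicate 2 took the members' median to 0.01, leaving out HFD replicate 1 to 0.19 and leaving out HFD replicate 3 to -0.14.

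The transplants were compared with HFD and with each other. H2-Aa was 24.5, 15.6 and 15.2 RPKM in the A10-FMT livers and 15.7, 10.9 and 20.3 RPKM in the Con-FMT livers. Cd74 was 50.1, 32.4 and 32.1 RPKM in A10-FMT and 30.03, 19.9 and 44.0 RPKM in Con-FMT. A10-FMT replicate 1 was far above the other 2 A10-FMT livers, the 3 Con-FMT livers were spread widely, and both groups overlapped HFD and each other. H2-Eb1 was 4.82, 0.24 and 1.78 RPKM in A10-FMT and 0.08, 0.87 and 4.12 RPKM in Con-FMT, so that each group held livers with little H2-Eb1 and 1 liver above every Con liver. For A10-FMT vs HFD, 0 of 7 members were called in limma and 0 had an unadjusted p under 0.05, beside 6.6% of all lines called, and 0 members had groups that did not overlap, beside 23.4% of all lines. Their median difference was 0.24 with 5 of 7 higher, and that of all lines was -0.03 with 43.2% higher. The members' median was 0.03 without A10-FMT replicate 1, and 0.10, 0.16 and 0.45 with HFD replicates 1, 2 and 3 left out in turn. For Con-FMT vs HFD, 0 of 7 were called in limma and 0 had an unadjusted p under 0.05, beside 0.00952% of all lines, and 0 did not overlap, beside 10.1%. For A10-FMT vs Con-FMT, the counts were again 0 of 7 called in limma and 0 at an unadjusted p under 0.05, beside 1.68% of all lines called, and 0 without overlap, beside 18.3%. The median for Con-FMT vs HFD was 0.04 with 5 of 7 members higher, and that of all lines was -0.0015 with 49.5% higher. It was -0.13, -0.03 and 0.28 without HFD replicates 1, 2 and 3, and 0.23 and -0.19 without Con-FMT replicates 2 and 3. The median for A10-FMT vs Con-FMT was 0.23 with 6 of 7 members higher, and that of all lines was -0.03 with 43.0% higher. It was 0.05 without A10-FMT replicate 1, 0.04 without Con-FMT replicate 2 and 0.43 without Con-FMT replicate 3. The differences A10-FMT vs HFD were 0.24 for H2-Aa (95% interval -0.31 to 0.79), 0.24 for Cd74 (-0.31 to 0.79) and 0.99 for H2-Eb1 (-0.20 to 2.19). These intervals leave room for changes of either sign. A10-FMT vs HFD, Con-FMT vs HFD, HFD vs Con and HFD+AOS vs HFD all use the same HFD livers.

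With AOS given directly, the mean log2 levels of all 7 tested members were above those of the matching diet group on both diets, none of them past the adjusted threshold. On the regular diet H2-Aa was 30.3, 16.2 and 19.6 RPKM in the AOS livers against 13.1 to 13.4 RPKM in Con, and Cd74 was 59.5, 32.4 and 42.1 RPKM against 28.1 to 32.4 RPKM. AOS replicate 1 was the highest of all 18 livers for H2-Aa, H2-Ab1, H2-Eb1, H2-DMb1 and Cd74, and AOS replicate 2 was only just above the Con livers for Cd74. H2-Aa and Cd74 were the 2 members whose groups did not overlap, beside 24.7% of all tested lines. The difference AOS vs Con was 0.64 for H2-Aa (SE 0.26, 95% interval 0.09 to 1.19, limma adjusted p = 0.248) and 0.51 for Cd74 (SE 0.26, limma adjusted p = 0.359). In limma 0 of 7 were called and 1, H2-Aa, had an unadjusted p under 0.05, beside 0.133% of all lines called. The median difference was 0.40 with 7 of 7 higher, and that of all lines was 0.07 with 67.8% higher. The members' median was 0.65 without AOS replicate 2. The difference for H2-Aa was 0.40 without AOS replicate 1, and 0.71 (limma adjusted p = 0.580) without Con replicate 3 and AOS replicate 3.

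On the high-fat diet the clearest separation was that of H2-Eb1. The HFD+AOS livers had 2.80, 3.26 and 2.45 RPKM of H2-Eb1, all above the HFD livers at 0.67, 0.20 and 0.27 RPKM. These same HFD livers were the ones below Con, so the 2 separations are not independent, and the HFD+AOS livers overlapped Con (1.01 to 2.79 RPKM). The difference HFD+AOS vs HFD was 1.49 (SE 0.56, 95% interval 0.29 to 2.68), with an unadjusted p of 0.0180 and a limma adjusted p = 0.109. A fit of the HFD and HFD+AOS livers alone gave a limma adjusted p = 0.00329, the lowest of 24 alternative fits. In 23 of the 24 H2-Eb1 was not called, with a limma adjusted p of up to 0.235. The fit of 2 groups leaves out the wide spread of H2-Eb1 in the AOS and transplant groups, and its share of all lines called is not given here. H2-Eb1 was the only member without overlap between HFD+AOS and HFD, beside 27.2% of all tested lines. H2-Aa was 21.9, 20.5 and 16.9 RPKM in HFD+AOS, between HFD replicate 3 (22.3 RPKM) and the other HFD livers. Cd74 was 37.4, 39.2 and 39.4 RPKM and H2-Ab1 13.7, 13.2 and 13.5 RPKM in HFD+AOS, and in both genes the group was tight and HFD replicate 3 lay above it. In limma 0 of 7 were called and 1, H2-Eb1, had an unadjusted p under 0.05, beside 8.75% of all lines called. The median difference was 0.27 with 7 of 7 higher, and that of all lines was -0.01 with 48.7% higher. The members' median was 0.11 without HFD replicate 1 and 0.55 without HFD replicate 3.

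The effect of AOS was not shown to differ between the diets. For the difference of the AOS effects 0 of 7 members were called and 0 had an unadjusted p under 0.05 in limma, beside 0.504% of all lines called. The values were -0.28 for H2-Aa (95% interval -1.06 to 0.50) and 0.54 for H2-Eb1 (-1.15 to 2.23). Averaged over both diets, a contrast added after the data were seen, AOS came with a difference of 1.22 for H2-Eb1 (SE 0.40, limma adjusted p = 0.0644), 0.50 for H2-Aa (SE 0.18, limma adjusted p = 0.0934) and 0.40 for Cd74 (SE 0.18, limma adjusted p = 0.179). In limma 0 of 7 were called and these 3 had an unadjusted p under 0.05, beside 9.57% of all lines called. The median was 0.34, beside 0.03 over all lines. In this contrast 2 members, H2-Aa and Ctss, were called without HFD replicate 3. That liver was the highest of the HFD group for 6 of 7 members, though not for H2-Eb1. Leaving it out lowers the HFD mean of H2-Aa and of Ctss, and so raises their differences in this contrast. The share of all lines called in that refit is not given here, so the 2 calls cannot be set against the 9.57% of the full fit.

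**Figure D2:**
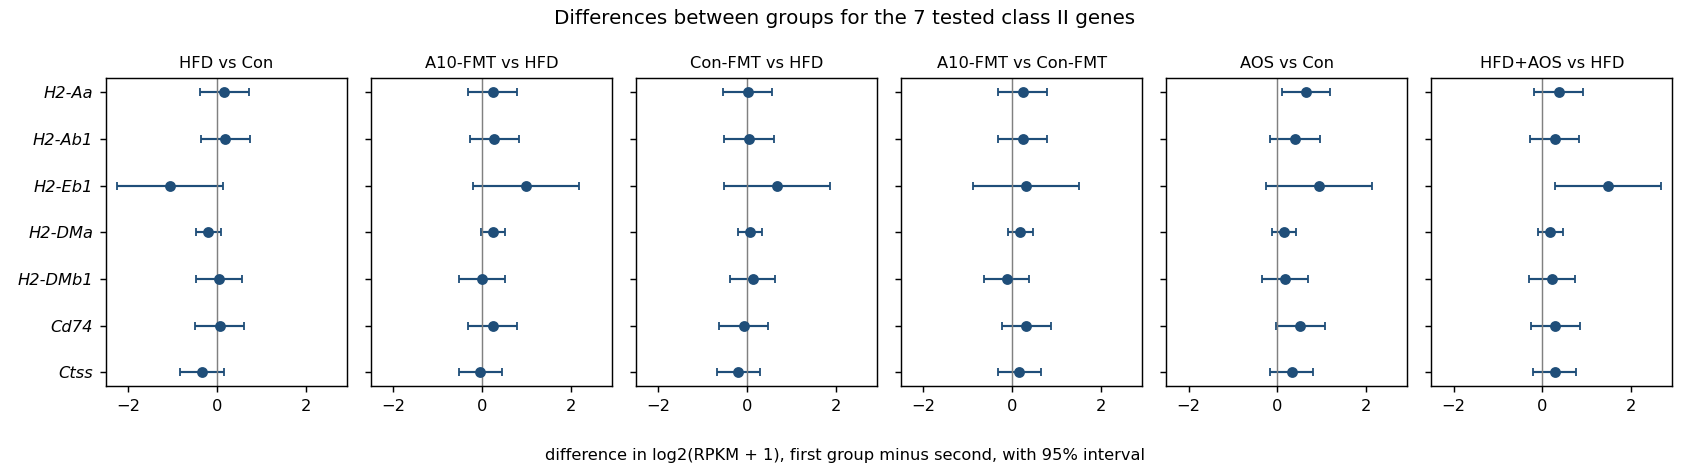
Difference between groups on the log2(RPKM + 1) scale (first group minus second, with its 95% interval from limma over 18 livers) for the 7 tested class II genes in 6 comparisons. Only H2-Aa in AOS vs Con (0.64) and H2-Eb1 in HFD+AOS vs HFD (1.49) have unadjusted intervals wholly on one side of 0.

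Over all 6 groups, the order of the mean levels differed between members and neighbouring groups were not separated. H2-Aa ran from AOS (22.0 ± 7.38 RPKM, SD, n = 3) through HFD+AOS (19.8 ± 2.62), A10-FMT (18.4 ± 5.26), HFD (15.7 ± 5.78) and Con-FMT (15.6 ± 4.69) to Con (13.3 ± 0.182). Ctss ran from AOS (18.2 ± 1.79 RPKM) and Con (14.6 ± 3.17) through HFD+AOS (13.8 ± 2.10), HFD (11.9 ± 5.62) and A10-FMT (10.9 ± 1.89) to Con-FMT (9.61 ± 1.11). H2-Eb1 was lowest in HFD (0.38 ± 0.254 RPKM) and highest in AOS (5.26 ± 3.72). The smallest adjusted p between neighbours in any member's order, taken on the log2 means, was 0.482 in limma, for Ctss. In the test of any difference among the groups 0 of 7 members were called by limma, beside 14.8% of all lines, and 2 had an unadjusted p under 0.05, namely Ctss (limma adjusted p = 0.0904) and H2-Eb1 (limma adjusted p = 0.142). Ciita, tested only when the filter on low values was left out (17109 lines), had a limma adjusted p of 0.638 or higher in each of the 8 contrasts.

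H2-Aa, H2-Ab1, Cd74 and H2-DMb1 varied together from liver to liver. Over 18 livers their 6 pairs had Pearson's r from 0.797 to 0.945 (Spearman's rho 0.796 to 0.935), and after the group means were removed r was 0.890 to 0.964. Without the 2 livers farthest from the median r was 0.682 to 0.910, and without Con replicate 3 and AOS replicate 3 it was 0.815 to 0.954. These are descriptions, since the genes share libraries and not all livers need be independent. The ratio of H2-Ab1 to H2-Aa, the chains of 1 molecule, stayed between 0.541 and 0.801, and that of Cd74 to H2-Aa between 1.71 and 2.41. H2-DMa, partner of H2-DMb1, had lower correlations with the other members, from 0.5003 to 0.735. Within groups the same liver tended to lead. Con-FMT replicate 3 and A10-FMT replicate 1 were the highest of their groups for 7 of 7 tested members, HFD replicate 3 for 6 of 7 and AOS replicate 1 for 5 of 7, whereas no Con or HFD+AOS liver led for more than 3 of 7.

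H2-Eb1 did not keep this ratio. As a percent of H2-Aa it was 21.3, 7.59 and 15.3 in Con, 30.4, 11.4 and 24.0 in AOS and 12.8, 15.9 and 14.5 in HFD+AOS. It was 5.53, 1.60 and 1.21 in HFD, 0.511, 7.96 and 20.3 in Con-FMT and 19.7, 1.54 and 11.7 in A10-FMT. HFD replicate 3 was thus high for H2-Aa and Cd74 and had little H2-Eb1. The ratio spanned 59.6-fold, or 25.2-fold without Con-FMT replicate 1, against 1.48-fold for H2-Ab1 to H2-Aa. The gene for the alpha chain of the E molecule, listed as H2-Ea-ps and annotated as a polymorphic pseudogene, followed H2-Eb1. Some mouse strains carry a defective copy of it. H2-Ea-ps was 3.61, 0.30 and 1.83 RPKM in Con, 5.11, 2.28 and 2.78 RPKM in AOS and 2.94, 1.14 and 2.74 RPKM in HFD+AOS. In HFD it was 0.10 and 0.10 RPKM and listed at 0 in replicate 3, in Con-FMT 0.09, 0.87 and 5.54 RPKM, and in A10-FMT 5.55, 1.15 and 3.34 RPKM. All 3 HFD livers and Con-FMT replicate 1 were low for both chains, at 0.10 RPKM or less of H2-Ea-ps, whereas A10-FMT replicate 2 had 0.24 RPKM of H2-Eb1 with 1.15 RPKM of H2-Ea-ps, and Con replicate 2 had 1.01 RPKM of H2-Eb1 with 0.30 RPKM of H2-Ea-ps. Between H2-Eb1 and H2-Ea-ps r was 0.87 over 18 livers and 0.86 after the group means were removed. H2-Ea-ps itself passed no test, its smallest limma adjusted p being 0.0556 for A10-FMT vs HFD, a difference of 1.89 (SE 0.57). ICR mice are outbred, the MHC haplotype of each mouse was not analysed here, and its part in the levels of H2-Eb1 and H2-Ea-ps was not tested.

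**Figure D3:**
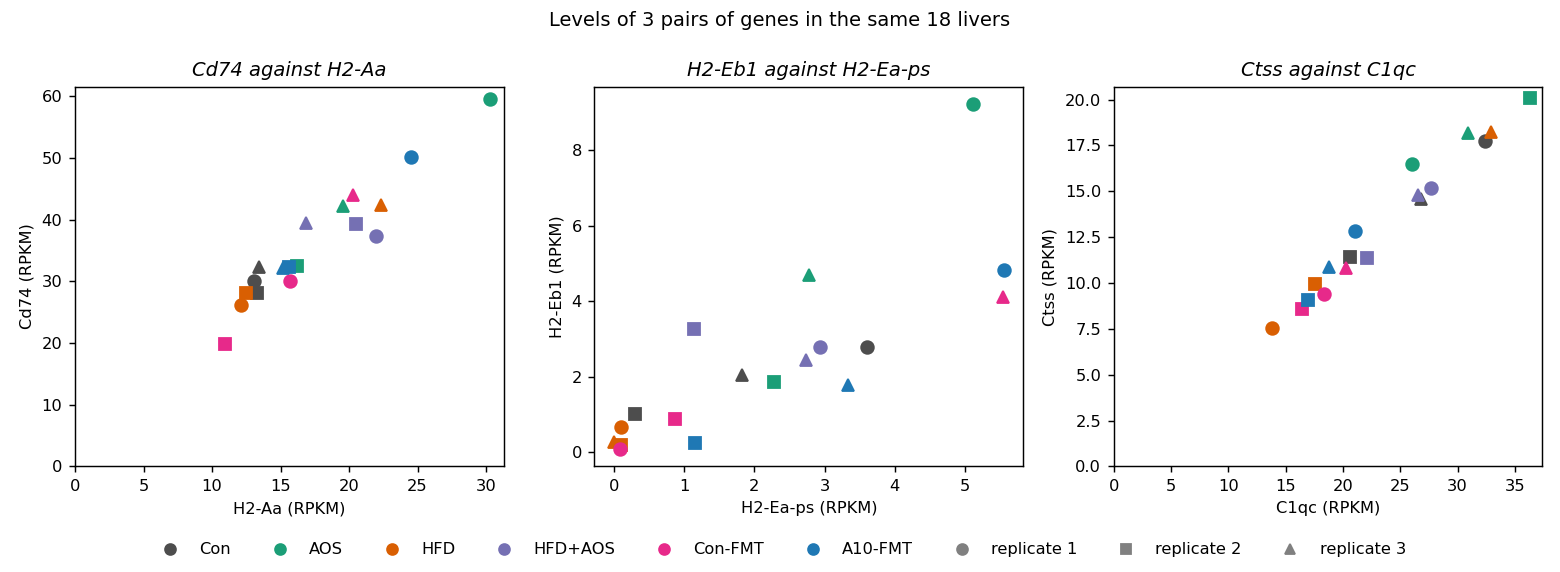
Level (RPKM) of Cd74 against H2-Aa, of H2-Eb1 against H2-Ea-ps and of Ctss against C1qc in the same 18 livers, coloured by group and marked by replicate. Livers with more H2-Aa tend to have more Cd74, the HFD livers sit near the origin for H2-Eb1 and H2-Ea-ps, and Ctss lies along a line with C1qc (r = 0.98 on the log2 scale).

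Ctss kept apart from the class II chains and went with markers of Kupffer cells. Its r with the other tested members was 0.333 to 0.617, but with C1qc, C1qa and C1qb, the 3 genes for the chains of complement C1q, it was 0.98, 0.96 and 0.95, and these were its 3 nearest genes among all tested. Ctss was 17.7, 11.4 and 14.6 RPKM in Con, 16.5, 20.1 and 18.2 RPKM in AOS and 7.53, 9.92 and 18.2 RPKM in HFD. It was 15.2, 11.4 and 14.8 RPKM in HFD+AOS, 9.42, 8.60 and 10.8 RPKM in Con-FMT and 12.8, 9.07 and 10.9 RPKM in A10-FMT. The AOS group had the highest mean and the Con-FMT group the lowest, and HFD replicate 3 was far above the other HFD livers. The summed level of the 10 Kupffer cell markers followed the same course, at 191, 124 and 169 RPKM in Con, 157, 219 and 190 RPKM in AOS, 89.2, 105 and 208 RPKM in HFD, 129 to 149 RPKM in HFD+AOS, 94.4 to 124 RPKM in Con-FMT and 98.5 to 123.1 RPKM in A10-FMT. Its r with Ctss was 0.98 (0.97 after the group means were removed), and this sum includes the 3 C1q genes. Its r was 0.24 with H2-Ab1, 0.29 with H2-DMb1, 0.38 with H2-Aa, 0.40 with H2-Eb1, 0.44 with Cd74 and 0.58 with H2-DMa. Between Ctss and the summed pan-leukocyte markers r was 0.85. None of the 10 markers was called by limma in any comparison, and their medians over the 6 pairwise comparisons lay between -0.34 (HFD vs Con) and 0.22 (AOS vs Con). How far the number of Kupffer cells moved Ctss was not tested.

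Markers of the other cells that make class II molecules were low. The 8 B cell markers summed to 0.61 to 6.47 RPKM in a liver and the 9 dendritic cell markers to 1.97 to 3.34 RPKM, with only Cd79a and Zbtb46 above the filter. A10-FMT replicate 1, highest of its group for 7 of 7 members, also had the highest sums of B cell markers (6.47 RPKM), of dendritic cell markers (3.34 RPKM), of monocyte markers (35.4 RPKM) and of the 5 pan-leukocyte markers (20.1 RPKM). AOS replicate 1, with the highest class II levels of all, had a B cell sum of 2.28 RPKM, a Kupffer cell sum of 157 RPKM and a pan-leukocyte sum of 15.9 RPKM, each within the range of the other livers. HFD replicate 3 had the lowest B cell sum (0.61 RPKM). Over 18 livers the r of Cd74 was 0.62 with the pan-leukocyte sum, 0.51 with the dendritic cell sum and 0.43 with the B cell sum. The T and NK cell markers summed to 2.60 to 5.01 RPKM and the neutrophil markers to 1.86 to 10.2 RPKM. Their part in the class II levels was not tested. None of the B cell, dendritic cell, T and NK cell, neutrophil or pan-leukocyte markers was called in a pairwise comparison. Of the 2 tested monocyte markers 1, Ly6c2, was called in HFD+AOS vs HFD (0.97, limma adjusted p = 0.0243), beside 8.75% of all lines. The list medians over the 6 pairwise comparisons ran from -0.23 to 0.45 for B cells, -0.05 to 0.07 for dendritic cells and -0.33 to 0.57 for monocytes. They ran from -0.20 to 0.08 for T and NK cells, -0.87 to 0.49 for neutrophils and -0.14 to 0.15 for pan-leukocyte markers. For the cells of the liver itself they were -0.04 to 0.10 for endothelium, -0.09 to 0.32 for stellate cells, -0.42 to 0.06 for cholangiocytes and -0.02 to 0.18 for hepatocytes. Of the 2 tested cholangiocyte markers 1, Sox9, was called, lower, in A10-FMT vs HFD and HFD+AOS vs HFD, beside 6.6% and 8.75% of all lines.

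**Figure D4:**
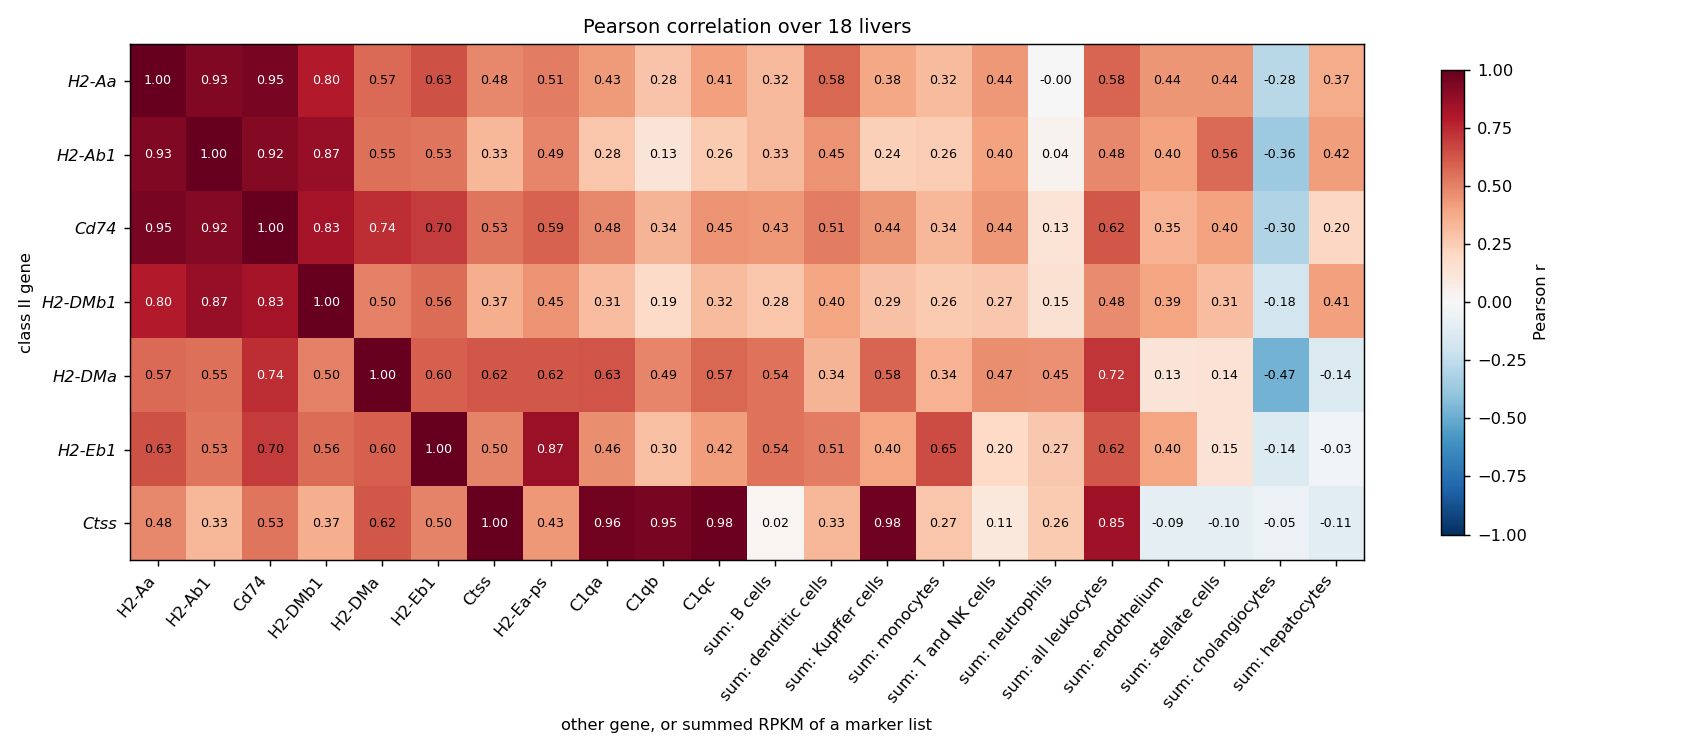
Pearson's r over 18 livers, on the log2(RPKM + 1) scale, between the 7 tested class II genes (rows) and the other members, H2-Ea-ps, the C1q genes and the summed levels of marker lists (columns), from blue (-1) through white (0) to red (1). H2-Aa, H2-Ab1, Cd74 and H2-DMb1 form a block at 0.797 to 0.945, and Ctss is highest with the C1q genes and the Kupffer cell sum.

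Of 30 further class II partners and regulators found in the table, 21 were tested. Most stayed within the spread between livers. In HFD+AOS vs HFD 2 of 21 were called, beside 8.75% of all lines, namely Rfxank, a subunit of the factor that binds the X box, lower (-0.77, SE 0.13, limma adjusted p = 0.00268), and Rfx5, another subunit, higher (0.30, SE 0.089, limma adjusted p = 0.0455). In A10-FMT vs HFD 1 of 21 was called, beside 6.6% of all lines, again Rfxank and again lower (-0.58, limma adjusted p = 0.0152). Rfxank was 9.27, 8.45 and 9.68 RPKM in Con, 6.91, 5.61 and 5.28 RPKM in HFD and 3.91, 2.70 and 2.66 RPKM in HFD+AOS. Con livers were above and HFD+AOS livers below all HFD livers, in comparisons in which 18.5% and 27.2% of all lines did not overlap. In the other 4 pairwise comparisons 0 of 21 were called, and the list medians lay between -0.03 and 0.09. Over the 6 groups 2 of 21 were called, beside 14.8% of all lines. They were Rfxank (limma adjusted p = 0.000108) and Bcl6, a transcriptional repressor (limma adjusted p = 0.0168). Spi1, a myeloid transcription factor, was not called (limma adjusted p = 0.0678). The genes for the modifier H2-DO were at the foot of the scale, with H2-Oa at 0 to 0.41 RPKM and H2-Ob at 0.05 to 0.43 RPKM. Creb1, which binds the cyclic AMP response element, was at 1.96 to 3.16 RPKM.

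Interferon gamma is the best known inducer of Ciita. Ifng itself was listed at 0 in 11 livers and reached 0.17 RPKM at most. Of 18 tested genes of its pathway 0 were called by limma in the 6 pairwise comparisons, with list medians from -0.11 (A10-FMT vs HFD) to 0.26 (AOS vs Con). In HFD vs Con and in AOS vs Con 17 of 18 were higher, in HFD+AOS vs HFD 13, in A10-FMT vs Con-FMT 5, in Con-FMT vs HFD 3 and in A10-FMT vs HFD 2. Of all tested lines, 62.5% were higher in HFD vs Con, 67.8% in AOS vs Con and 48.7% in HFD+AOS vs HFD. The share was 43.0% in A10-FMT vs Con-FMT, 49.5% in Con-FMT vs HFD and 43.2% in A10-FMT vs HFD. Irf1, a transcription factor induced by interferon gamma, differed by 0.35 in HFD vs Con (limma adjusted p = 0.220), and the r of Cd74 with Irf1 was 0.28. Averaged over the diets, 1 of the 18 genes was called for AOS, beside 9.57% of all lines. It was Cxcl9, a chemokine gene induced by interferon gamma, at a higher level with AOS (0.50, limma adjusted p = 0.0284).

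The genes of MHC class I presentation were tested as the sister pathway. The class I genes H2-K1 and H2-D1 were far higher, with medians of 353 and 420 RPKM beside 15.9 RPKM for H2-Aa. The summed RPKM of the 20 genes, 4072 to 5608, includes B2m (median 2301.5 RPKM) and chaperone genes. In HFD+AOS vs HFD 3 of 20 were called, beside 8.75% of all lines, the class I gene H2-Q4 higher (0.48, limma adjusted p = 0.0120) and the chaperone genes Canx (-0.35, limma adjusted p = 0.0147) and Pdia3 (-0.56, limma adjusted p = 0.0434) lower. In A10-FMT vs HFD 3 of 20 were called, beside 6.6% of all lines, all lower and all chaperone genes, namely Calr (-0.73), Canx (-0.43) and Pdia3 (-0.66). These chaperones serve many secreted proteins. In the other 4 pairwise comparisons 0 of 20 were called. Averaged over the diets, AOS came with higher H2-Q4 (0.46), B2m (0.25), the peptide transporter gene Tap1 (0.32) and Nlrc5, the class I counterpart of Ciita (0.31), 4 of 20 called, beside 9.57% of all lines, and the largest limma adjusted p among them 0.0343. The medians of the list lay between 0.00 and 0.23 in the pairwise comparisons. The r of Cd74 with Nlrc5 was 0.63, with B2m 0.51, with H2-K1 0.41 and with H2-D1 -0.16.

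Among tested genes that were not members, the 10 most like the mean of the 7 tested members over 18 livers were Zfp688 (r = 0.85), Cabin1 (0.83), Fes (0.81), Gpsm3 (0.79), Sec31b (0.76), Rnf145 (0.76), Rac2 (0.755), Ogfrl1 (0.75), Klf16 (0.75) and H2-Ea-ps (0.75). The mean gave the variable H2-Eb1 much weight. After the group means were removed 3 of these 10, Cabin1, Klf16 and Zfp688, were again among the 10 nearest. Taken singly, the nearest gene of H2-Aa was Cd74 and that of H2-Ab1 was H2-Aa, that of H2-DMb1 was H2-Ab1, and that of H2-Eb1 was Fam214b (r = 0.90) followed by H2-Ea-ps.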

How the data were processed

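Total RNA of whole livers was sequenced on an Illumina instrument, and the authors mapped reads to a set of reference genes and deposited RPKM values for 19057 lines of gene symbols. The unit is that of the study's methods, since the column names give none. The aligner is SOAPaligner in the study's methods, whereas the submitters' processing notes name Bowtie 0.12.2 and mm10. Which of them made the values is not known. The gene annotation and any use of strand are not given in the sources used here, and the study's own test needs read counts and was not run. Symbols that a spreadsheet had turned into dates were not used as members or list genes. Their lines were not removed, so any that passed the filter count among all lines tested. All 18 value columns matched a sample (0 unmatched).

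Lines with at least 1 RPKM in at least 3 of 18 livers were kept (10507 of 17109 above 0 in any liver). Values were log2(RPKM + 1), fitted with 1 mean for each of the 6 groups in limma 3.58.1 (lmFit, eBayes with trend, R 4.3.3), two-sided, each comparison adjusted after Benjamini-Hochberg over all its lines, with a threshold of 0.05. The fit was tested on simulated data with large changes in genes above a set level. That does not show how often it finds small changes or changes of low genes. Descriptions and figures were made in Python 3.11.15 (numpy 2.4.6, pandas 2.3.3, scipy 1.17.1, matplotlib 3.10.9). Correlations over livers are Pearson's r on the log2 scale. Positions of genes came from GENCODE M21 and promoters from RefSeq, both on GRCm38. Alternatives were a pseudocount of 0.1, no filter, equal medians, only the groups compared, a fold threshold, the replicate number as a block, and livers left out.

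The 8 members and the 14 lists were chosen with earlier results of these data known. All members are named, with up to 3 genes of a list by the smallest p over the 6 groups, fixed genes of the pathway, the genes called in a comparison, and the 10 genes most like the members. Other genes were named after their values were seen. 1 gene of the lists is not reported here.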

Additional observations from a re-analysis of the deposited data

How the results depend on the processing

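The number of members called was recomputed under 223 alternatives over the 9 tests, and 214 of these gave 0. With only the groups compared in the fit, 1 member (H2-Eb1) was called in HFD+AOS vs HFD and 1 (H2-Eb1) in the AOS effect averaged over the diets. With each liver left out in turn, that averaged effect gave 0 to 2 members: 2 (H2-Aa and Ctss) without HFD replicate 3, and 1 (H2-Eb1) without AOS replicate 2, A10-FMT replicate 1, A10-FMT replicate 2 or Con-FMT replicate 3. The test over the 6 groups gave 0 to 1, the 1 being Ctss without HFD replicate 1 or HFD replicate 3. The share of all lines called in each of these refits is not given here, so these counts cannot be set against it. The other counts were 0 under all alternatives run, among them the pseudocount of 0.1, no filter, equal medians and the fits without Con replicate 3 and AOS replicate 3. The H2-Aa difference in AOS vs Con went from 0.40 to 0.83 and its limma adjusted p from 0.173 to 0.609, and the H2-Eb1 difference in HFD+AOS vs HFD went from 1.39 to 2.73 (pseudocount 0.1) and its limma adjusted p from 0.00329 to 0.235. Of 144 recomputed medians, 0 moved by more than the spread between replicates (SD 0.31) and 5 took the other sign. With the replicate block the count was 0 in every test. Deviations of livers with the same replicate number had correlations from -0.177 to 0.225, both ends in HFD+AOS vs HFD. In 0 comparisons were all of them over 0.1, so no pairing held for every replicate number. Sharing in a single replicate number was not tested. The depth of a library is unknown, which limits what can be said of levels near 0, such as those of Ciita and of H2-Eb1 in HFD.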
